A study of Mus musculus with 20 samples.

Results

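The lymphatic endothelial identity genes described here are 9 genes of the mouse, Prox1, Sox18, Nr2f2, Tbx1, Flt4, Lyve1, Pdpn, Reln and Mmrn1, chosen by their symbols among the 24062 gene symbols that were counted. All 9 were found and all 9 passed the filter on low counts, and the lowest count of any of them in any library was 513 reads. RNA was sequenced from dermal lymphatic endothelial cells (LECs) that had been sorted as live CD31+podoplanin+ cells from the ear skin of wild-type C57BL/6 mice (substrain C57BL/6N) at postnatal day 56. The cells were taken at zeitgeber times ZT1, ZT7, ZT13 and ZT19, where ZT counts the hours after the lights come on, so ZT1 and ZT7 fall in the light phase and ZT13 and ZT19 in the dark phase. Each time point had 5 biological replicates, each of them the ears of a pair of mice pooled before the sort, which makes 20 libraries, and all of them came from the same strain and genotype with no treatment. Every error and n below counts such pools. Podoplanin, the product of Pdpn, is one of the 2 antigens of the sort, so the presence of Pdpn reads is a property of the gate.

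LECs line the lymphatic vessels and keep their identity through a small set of transcription factors. PROX1 is the factor that turns venous endothelium into lymphatic endothelium and has to stay active for the cells to remain lymphatic, SOX18 and NR2F2 (COUP-TFII) switch on Prox1 in the embryo, and TBX1 acts in the growth of lymphatic vessels. FLT4, also called VEGFR-3, is the receptor for the lymphatic growth factors VEGF-C and VEGF-D. LYVE1 is a hyaluronan receptor on the surface of initial lymphatic vessels, and podoplanin is a mucin-like surface protein that binds the platelet receptor CLEC-2. Reelin, the product of Reln, and multimerin 1, the product of Mmrn1, are large secreted glycoproteins. Dendritic cells leave the skin through these vessels, and the series compares LECs taken at different times of day.

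Positions were taken from the GENCODE M21 annotation of GRCm38, the build that mm10 denotes. Among the transcription factors, Prox1 lies on chromosome 1 from 190118035 to 190170714 on the minus strand with 8390 bases of exon, Sox18 on chromosome 2 from 181669836 to 181671640 on the minus strand with 1620 bases, Nr2f2 on chromosome 7 from 70351944 to 70366735 on the minus strand with 4865 bases, and Tbx1 on chromosome 16 from 18580979 to 18590671 on the minus strand with 2674 bases. The growth factor receptor gene Flt4 lies on chromosome 11 from 49609263 to 49652739 on the plus strand with 6255 bases of exon. Of the surface proteins, Lyve1 lies on chromosome 7 from 110850607 to 110863239 on the minus strand with 2893 bases of exon, and Pdpn on chromosome 4 from 143267431 to 143299564 on the minus strand with 1817 bases. Of the secreted proteins, Reln spans 460249 bases of chromosome 5, from 21884454 to 22344702 on the minus strand, with 11699 bases of exon in 65 blocks, and Mmrn1 lies on chromosome 6 from 60924976 to 60989378 on the plus strand with 4477 bases. The exons of Nr2f2 share 643 bases with B130024G19Rik, a transcript of the opposite strand with 508 ± 323 normalized reads (SD, n = 20). The library kit does not mark strand, so reads from those 643 bases cannot be told apart between the pair. Antisense transcripts also share 133 exon bases with Prox1 and 246 with Reln, and these 2 transcripts have no row of their own in the counts.

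Since the samples differ in time of day, the promoters were read for elements through which clock proteins act, and the 2 windows that hold one are shown. Windows from 250 bases before to 50 after a transcription start were taken from RefSeq (GRCm38.p6) for 7 of the 9 genes, and the table used here has no entry for Lyve1 or Sox18. The E-box CACGTG, which BMAL1 and CLOCK bind, was found in the windows of Pdpn and Reln, at positions -144 and -71 from the start, and 7.15% of all 32851 mouse windows hold it. The Pdpn window also holds AGGTCA, a motif of COUP-TF proteins such as NR2F2, at position -34, as do 16.3% of all windows. Both windows are printed 5′ to 3′ on the minus strand, at chr4:143299515-143299814 for Pdpn and at chr5:22344656-22344955 for Reln, and the capitals mark these motifs.
Pdpn: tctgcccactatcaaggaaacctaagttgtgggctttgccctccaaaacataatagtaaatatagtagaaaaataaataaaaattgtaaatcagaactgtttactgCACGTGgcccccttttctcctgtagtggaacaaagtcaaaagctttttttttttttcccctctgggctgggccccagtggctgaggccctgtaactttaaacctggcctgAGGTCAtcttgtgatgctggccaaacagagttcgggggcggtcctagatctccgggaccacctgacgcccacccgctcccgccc
Reln: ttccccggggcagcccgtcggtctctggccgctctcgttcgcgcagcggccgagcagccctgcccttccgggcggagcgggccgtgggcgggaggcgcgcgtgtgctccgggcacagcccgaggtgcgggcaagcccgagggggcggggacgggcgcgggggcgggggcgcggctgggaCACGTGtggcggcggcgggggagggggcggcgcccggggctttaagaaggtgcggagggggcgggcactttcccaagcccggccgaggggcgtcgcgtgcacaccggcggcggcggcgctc
The D-box TTATGNAA, which DBP and its relatives bind, and the longer ROR element were in none of the 9 windows of these genes, against 3.38% and 0.219% of all windows. The ROR element ends in the AGGTCA of the COUP-TF motif, so a match of the first is also one of the second. Of the other motifs searched on both strands, AACAAT, a motif of SOX proteins, was in the Mmrn1 window as in 10.7% of all windows, and TATAAA was on the opposite strand of 1 of the 2 Prox1 windows as in 13.6%. A match gives letters in a window and not a bound site.

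The reads counted on genes ranged from 4475111 to 42002363 per library (median 9379794), and together the 9 genes took between 0.547% and 1.12% of them. The genes took between 12.7% and 81.6% of the reads that were either on or outside annotated genes, a share called here the share on genes. This share was above 50% in 6 libraries, replicate 2 of ZT7, replicate 5 of ZT13 and replicates 1, 2, 3 and 5 of ZT19, and it was at most 39.7% in the other 14, so it overlaps with the time point. No batch is named for any library. The 12 endothelial genes listed as markers, with Pecam1 (CD31) at 3961 ± 941 normalized reads (SD, n = 20), Cdh5 at 2832 ± 1548 and Tek at 1137 ± 325, had reads in every library. Of 12 markers of blood vessels, 9 were at 0 in at least 1 library, among them Flt1 at 99.2 ± 76.6, Notch4 at 114 ± 81.9 and Vwf at 205 ± 124. The other 3 had reads in every library and were abundant, with 2368 ± 1621 for Plvap, 2215 ± 1407 for Gpihbp1 and 1197 ± 547 for Aqp1. The summed level of the 12 was between 5435 and 12883 at ZT13, with a median of 11440, and between 3812 and 7514 in the other 15 libraries, and their adjusted p among the time points was between 0.225 and 0.939 in edgeR's test. Keratinocyte markers were abundant, with 13978 ± 9569 for Krt5, 28086 ± 20394 for Krt14 and 17598 ± 17433 for Krt15. Their summed level ran from 11458 to 33322 at ZT13 and from 95482 to 202070.1 at ZT19, and 7 of 14 differed among the time points. Fibroblast markers, with 277 ± 209 for Col1a1, 908 ± 713 for Col1a2 and 872 ± 1051 for Col3a1, had summed levels from 6541 to 18661 at ZT1 and from 975 to 4697 at ZT7, and 1 of 12, Ccdc80, differed among the time points (adjusted p = 0.0128 in edgeR's test).

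Compared per exon length, the 9 genes covered an order from Mmrn1 and Lyve1 at the top to Prox1 at the bottom (values are normalized reads per kb of exon, mean ± SD over 20 libraries). Mmrn1 had 6001 ± 2275 and Lyve1 5738 ± 2282, above 99.6% and 99.5% of the 19001 tested genes with a known length. This pair did not differ beyond its spread, since Mmrn1 was the higher of the 2 in 9 of 20 libraries. The only step of the order that held in 20 of 20 libraries was that from Lyve1 down to Flt4, with a difference of 1.76 ± 0.60 on the log2 scale (mean ± SD). Flt4 (1663 ± 578), Tbx1 (1634 ± 329), Sox18 (1382 ± 526) and Reln (1229 ± 399) followed close together. Flt4 was above Tbx1 in 10 of 20 libraries and Sox18 above Reln in 8, so these neighbours did not differ beyond their spread. Tbx1 was above Sox18 in 15, by 0.31 ± 0.52 on the log2 scale, a step smaller than its SD. Below them came Pdpn, lower than Reln in 15 of 20 libraries, with 930.3 ± 574.8, then Nr2f2 with 712 ± 329 and Prox1 with 322 ± 111. Prox1 was the lower of the last 2 in 17 of 20 libraries, by 1.06 ± 0.79 on the log2 scale, and was itself above 87.0% of the tested genes.

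**Figure D1:**
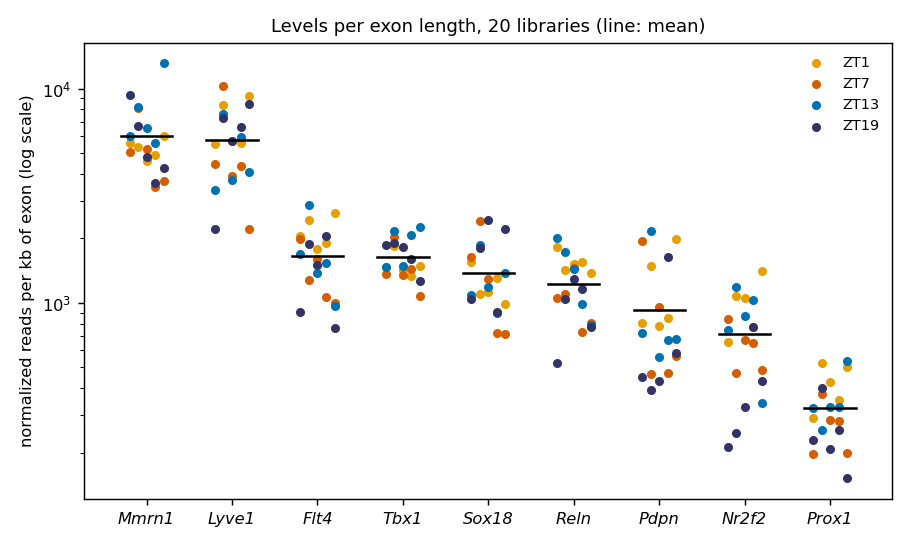
Normalized reads per kb of exon (log axis) for the 9 lymphatic identity genes in 20 libraries, coloured by time point, with the mean over all libraries as a black line. Mmrn1 and Lyve1 lie near 6001 and 5738 reads per kb, Prox1 near 322, and the middle of the order overlaps.

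Whether these genes changed with the time of day was tested among the 4 time points and for a curve with a period of 24 h. None of the 9 passed the comparison among the time points (adjusted p from 0.227 to 0.859 in edgeR's quasi-likelihood test, adjusted by Benjamini-Hochberg over 19209 genes), where 0.422% of all genes tested were called. At an unadjusted p under 0.05 the test held 1 of the 9, Nr2f2, against 15.7% of all genes. DESeq2, run on the same genes, called Nr2f2 alone of the 9, with 2.77% of all genes called. For the 24-h curve, edgeR called 0 of the 9 at the adjusted threshold, where 0.0312% of all genes were called, and none passed at an unadjusted p under 0.05 against 9.23% of all genes, and DESeq2 also called none. The amplitudes were between 0.09 for Reln and 0.35 for Nr2f2 on the log2 scale. Leaving out 1 library moved the amplitude of each of the 9 genes by over 1.5 times at least once, for Reln to 0.046 without replicate 3 of ZT13 and to 0.20 without replicate 1 of ZT13, and for Nr2f2 to 0.22 without replicate 1 of ZT19. The fit without replicate 3 of ZT13 also moved differences that hold no library of ZT13. From ZT1 to ZT19 Prox1 went from -0.76 to -0.51 on the log2 scale and Nr2f2 from -1.32 to -1.15. Values without this library thus do not show the effect of its own reads alone. Between the highest and the lowest time-point mean, the 9 genes spanned a median of 0.63 on the log2 scale, against 1.204 for all genes tested, which include many low ones. Among the 1000 genes nearest in level to each of the 9 the median span was between 0.78 and 0.81, and the share of these with a smaller span ran from 7.80% for Tbx1 to 88.8% for Nr2f2, with the other 7 genes below 50%. In libraries of sorted cells, fewer LECs among the cells and less RNA of a gene per LEC cannot be told apart.

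**Figure D2:**
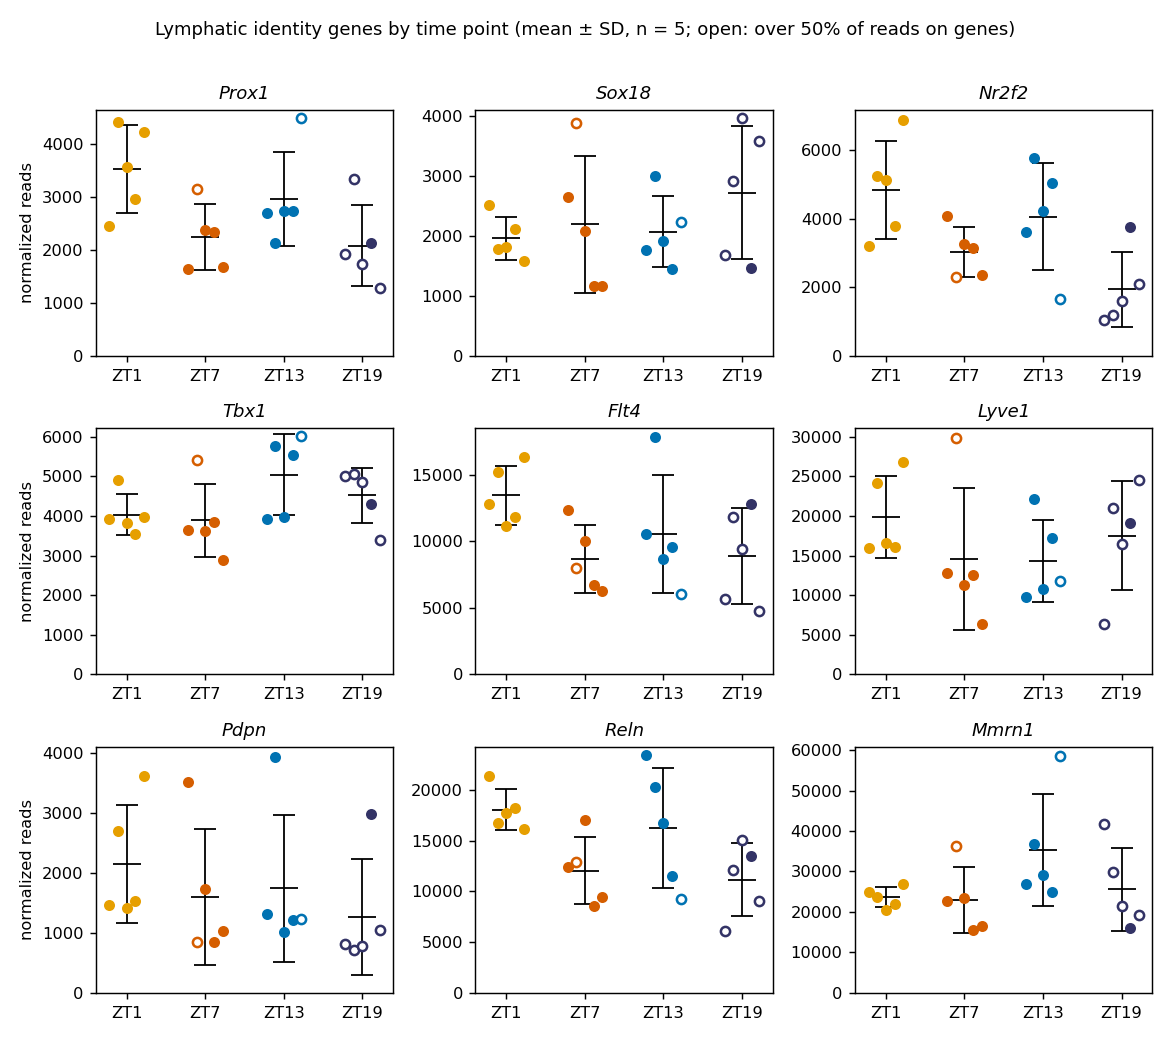
Normalized reads of each gene in each library by time point, with mean ± SD (n = 5) in black. Open circles are the 6 libraries with over 50% of their reads on genes. The time points of most genes overlap, and the open circles of Nr2f2, from 1036 to 2300.4 reads, lie below all of its filled ones.

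Among the transcription factors, Nr2f2 spanned most between time points, by 1.32 on the log2 scale. Its 5 libraries of ZT1 held 3188, 5236, 5114, 3771 and 6869.9 normalized reads and those of ZT7 4078, 2300.4, 3252, 3156 and 2365, for replicates 1 to 5. The libraries of ZT13 held 3616, 5757, 4225, 5038 and 1659.6, and those of ZT19 held 1036, 1199.7, 1592, 3749 and 2108. ZT19 thus had 4 of its 5 libraries below every library of ZT1, and replicate 4 reached into the range of ZT1. From ZT1, with 4836 ± 1434 (SD, n = 5), to ZT19, with 1937 ± 1094, the fold change was -1.32 on the log2 scale (SE 0.38, 95% interval -2.11 to -0.53, adjusted p = 0.0930 by edgeR's quasi-likelihood test), while 0.0156% of all genes were called in this pair. From ZT13 to ZT19 it was -1.07 (SE 0.38, adjusted p = 0.124 by the same edgeR test). DESeq2 called both differences, at -1.41 with an adjusted p of 0.00332 and at -1.25 with an adjusted p of 0.00792, in pairs in which it called 10.3% and 9.24% of all genes. Without replicate 4 of ZT19, edgeR called the first, at -1.71 with an adjusted p of 0.0235 and 4.55% of all genes called, and with keratinocyte and fibroblast marker scores as covariates it also did, at -1.995 with an adjusted p of 0.0362 and 0.927% of all genes called.

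The level of Nr2f2 moved with the share of reads on genes. In the 6 libraries with over 50% on genes it had between 1036 and 2300.4 normalized reads (median 1626), and in the other 14 between 2365 and 6870 (median 3924), so that these libraries did not overlap. Replicate 4 of ZT19, with 35.0% of its reads on genes, had 3749, replicate 5 of ZT13, with 79.9%, had 1660, and replicate 2 of ZT7, with 62.3%, had 2300.4. Nr2f2 was not alone in this. Among all genes tested 2.34% did not overlap between the 6 and the 14 libraries, the median gene was lower in the 6 by 0.70 on the log2 scale, and 38.2% of genes had a lower difference than the -1.36 of Nr2f2. All genes tested include many low ones. Over the 20 libraries Pearson's r between the log2 CPM of Nr2f2 and the share on genes, taken as log2 odds, was -0.71 (permutation p = 0.00058, adjusted p = 0.0104 over 18 relations), and Spearman's rho was -0.48 (permutation p = 0.0352, adjusted p = 0.162). Without the 2 libraries farthest from the median of the odds r was -0.56. Within the 14 libraries r was 0.50 and within the 6 it was -0.45, so the pooled relation did not hold within the 14. Of the 1180 genes with a mean level at or above that of Pdpn, 5.34% had a downward r at least 0.55 from 0. An upward r of this size was held by 26.4%, so the direction of Nr2f2 was the less frequent at such levels. With these odds as a covariate the difference of Nr2f2 from ZT1 to ZT19 was -0.78 (adjusted p = 0.574, edgeR's test), and without the 6 libraries, which leaves 1 library of ZT19 that is assumed to vary like the other groups, it was -0.37. The part of this property in the difference between time points cannot be told apart from that of the time of day, since 4 of the 6 libraries are of ZT19.

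**Figure D3:**
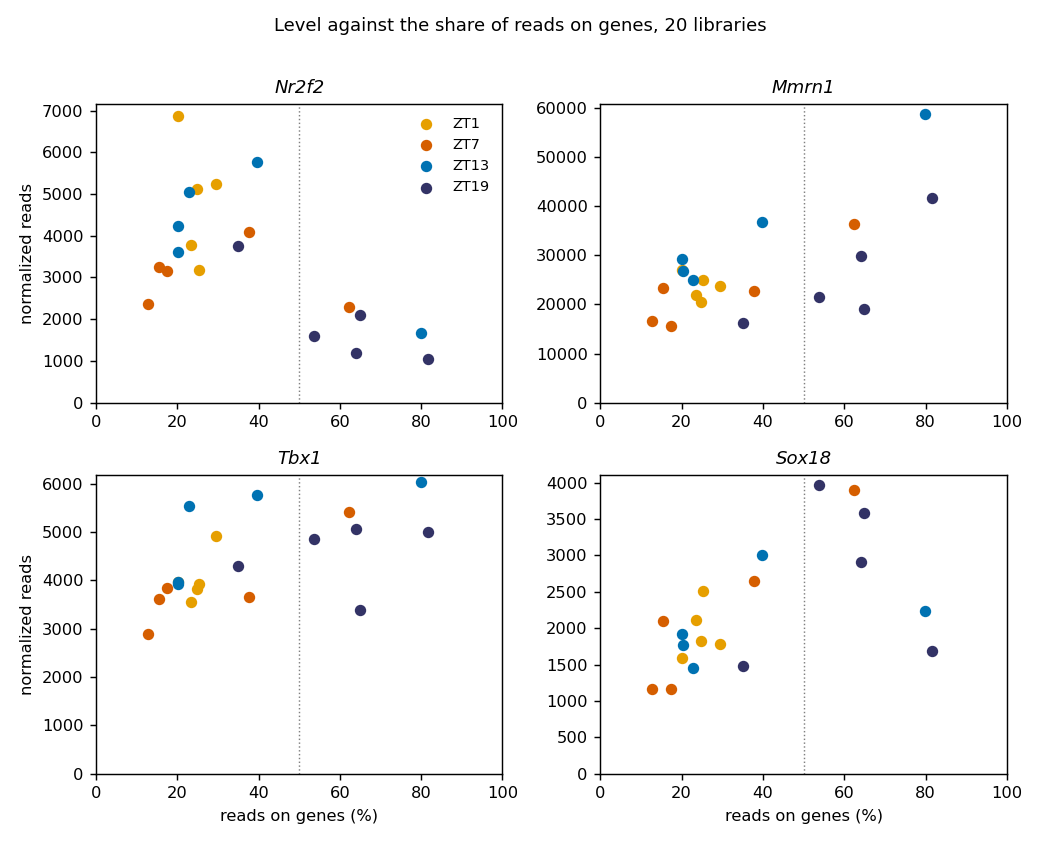
Normalized reads of Nr2f2, Mmrn1, Tbx1 and Sox18 against the percentage of reads on genes in the 20 libraries, coloured by time point, with a dotted line at 50%. Nr2f2 lies between 1036 and 2300.4 right of the line and between 2365 and 6870 left of it.

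Prox1 held 2444, 4414, 3571, 2959 and 4226 normalized reads at ZT1 and 1647, 3157, 2376, 2347 and 1675 at ZT7. At ZT13 it held 2705, 2139.8, 2735, 2742 and 4490.0, and at ZT19 1919, 3344, 1739.6, 2141 and 1276. Replicate 5 of ZT13 was the highest of all 20 libraries and replicate 5 of ZT19 the lowest, and ZT1 and ZT19 overlapped. The fold change from ZT1 (3523 ± 833) to ZT19 (2084 ± 773) was -0.76 on the log2 scale (SE 0.32, 95% interval -1.42 to -0.09, unadjusted p = 0.0271, adjusted p = 0.171 by edgeR's test). Sox18, which acts upstream of Prox1 in the embryo, ran from 1592 to 2517 normalized reads over the libraries of ZT1, and from 1164 to 3894 over those of ZT7. In the dark phase it ran from 1454 to 3003 at ZT13 and from 1476 to 3965 at ZT19. It was the one transcription factor of the 4 with its highest mean at ZT19, 2724 ± 1114 against 1966 ± 360.0 at ZT1, and the groups overlapped (0.47 on the log2 scale, SE 0.36, adjusted p = 0.453 by edgeR's test). Without replicate 3 of ZT19 the span between its highest and lowest mean was 0.29. Tbx1 had the smallest span. Its means lay between 3885 ± 932 at ZT7 and 5040.4 ± 1018 at ZT13, a span of 0.38 on the log2 scale (0.60 without replicate 3 of ZT13), and its biological coefficient of variation of 0.342 was undercut by 1.6% of the 1000 tested genes nearest to it in level. The 95% intervals of Tbx1 lay within a 2-fold change in all 6 pairs of time points.

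Flt4, the receptor for VEGF-C and VEGF-D, ran from 11122 to 16379 normalized reads over the libraries of ZT1, and from 6252 to 12399 over those of ZT7. In the dark phase it ran from 6048 to 17863 at ZT13 and from 4799 to 12783 at ZT19. Its mean was highest at ZT1, with 13467 ± 2239.7, and lowest at ZT7, with 8687 ± 2547, a fold change of -0.63 on the log2 scale from the first to the second (SE 0.38, 95% interval -1.41 to 0.14, adjusted p = 0.999 by edgeR's test). The summed fibroblast markers moved the same way, with no overlap of these 2 time points. With keratinocyte and fibroblast scores as covariates the span of Flt4 over the time points was 0.80, against 0.63 without them. The highest library of all was replicate 2 of ZT13, and the lowest was replicate 5 of ZT19.

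Lyve1, the hyaluronan receptor, held 15939.5, 24177, 16550.0, 16145 and 26809 normalized reads at ZT1 and 12807, 29894, 11338, 12559.9 and 6393 at ZT7. It held 9754, 22109.8, 10809.9, 17227 and 11847 at ZT13 and 6424, 20990.0, 16513, 19170.5 and 24562 at ZT19. Within ZT7 and within ZT19 the highest library held several times the reads of the lowest, and all time points overlapped. The means of the light phase were 19924 ± 5173 at ZT1 and 14598 ± 8934 at ZT7, and those of the dark phase 14349.5 ± 5206 at ZT13 and 17532 ± 6865 at ZT19 (SD, n = 5). From ZT7 to ZT19 the fold change was 0.26 on the log2 scale with a 95% interval from -0.63 to 1.16 (adjusted p = 0.772 by edgeR's test), so a difference of up to 2.23-fold in favour of ZT19 lies inside the interval. Over the 4 time points Lyve1 spanned 0.47, which became 0.89 without replicate 2 of ZT7 and 0.27 without replicate 3 of ZT13. Leaving out the latter library also moved differences between other time points, as given above. The 24-h curve fitted to Lyve1 had an amplitude of 0.27 and its maximum at 23.1 h, with an adjusted p of 0.767 in edgeR's test.

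Pdpn, the gene of the sorting antigen, held 1459, 2698, 1418, 1537 and 3625 normalized reads at ZT1 and 3516, 849.5, 1741, 857 and 1026 at ZT7. It held 1312, 3927, 1018, 1221 and 1236 at ZT13 and 821, 713, 788, 2989.8 and 1056 at ZT19. In each of the last 3 time points 1 library stood above the others, replicate 1 of ZT7, replicate 2 of ZT13 and replicate 4 of ZT19. Pdpn had the highest coefficient of variation of the 9 genes, 0.525, above that of 86.9% of the 1000 genes nearest in level. These were the libraries with 37.7%, 39.7% and 35.0% of their reads on genes, the highest shares among the 14 libraries at or under 50%, while replicate 5 of ZT1, with 20.2%, also reached 3625. Within the 14 libraries r between Pdpn and the log2 odds was 0.73, and within the 6 others, where Pdpn had between 713 and 1236 normalized reads, it was 0.46. The largest difference between 2 time points, from ZT1 to ZT19, was -0.75 on the log2 scale (95% interval -1.73 to 0.22, adjusted p = 0.354 by edgeR's test). The span over the time points was 1.35 without replicate 4 of ZT19 and 0.49 without replicate 5 of ZT1.

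Reln held 21351, 16725, 17782, 18193 and 16182 normalized reads at ZT1 and 12373, 12909, 17006, 8523 and 9470.5 at ZT7. At ZT13 it held 23411, 20264, 16766, 11539 and 9211, and at ZT19 it held 6112, 12146, 15083, 13529 and 9017. Every library of ZT1 lay above every library of ZT19, the 1 case among the 54 comparisons of a gene between a pair of time points in which the libraries did not overlap. Of all genes 8.56% did not overlap in that pair, and 2.87% over the 6 pairs. From ZT1, 18047 ± 2014, to ZT19, 11177 ± 3607, the fold change was -0.69 on the log2 scale (SE 0.37, 95% interval -1.46 to 0.07, adjusted p = 0.277 by edgeR's test). Mmrn1 was the most abundant of the 9 genes, with 24937, 23803, 20478, 21994 and 26912 normalized reads at ZT1 and 22696, 36258, 23406, 15596 and 16650.2 at ZT7. It held 26839, 36673, 29187, 25023 and 58654 at ZT13 and 41623, 29798, 21483, 16147 and 19147 at ZT19. The highest value, in replicate 5 of ZT13, came from the deepest library, where the gene had 271575 reads. Its mean was 22921 ± 8233 at ZT7 and 35275 ± 13801 at ZT13, a fold change of 0.62 on the log2 scale (SE 0.41, 95% interval -0.21 to 1.45, adjusted p = 0.9999 by edgeR's test). ZT13 also had the highest median of blood vessel markers. Within ZT13, though, replicate 5 had the lowest score of these markers (their mean centred log2 CPM), at -0.97, and a relation was not tested. Summed keratinocyte markers, from 67192 to 189103 at ZT7, did not overlap with those of ZT13. Without replicate 5 of ZT13 the span of Mmrn1 over the time points was 0.36, and without replicate 3 of ZT13 it was 0.88. With keratinocyte and fibroblast scores as covariates it was 0.25, and with the log2 odds of the share on genes it was 0.91.

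Over the 9 genes and the 6 pairs of time points, 54 comparisons in all, edgeR called 0, where it called 0.123% over all genes and pairs. Pair by pair it called 0.00521% of all genes from ZT1 to ZT7, 0.0208% from ZT1 to ZT13, 0.0937% from ZT7 to ZT13, 0.0156% both from ZT1 and from ZT7 to ZT19, and 0.588% from ZT13 to ZT19. At an unadjusted p under 0.05 it had 3 of the 54 (5.56%), those of Nr2f2 and Prox1 given above, which lies below the 12.2% over all genes and pairs. DESeq2 called 2, both of Nr2f2. In 18 of the 54 the 95% interval lay within a 2-fold change in either direction. In the others a change of 2-fold was inside the interval, so the spread between replicates does not allow a smaller limit there. The median over the 9 genes was -0.45 on the log2 scale from ZT1 to ZT7 against 0.05 over all genes, -0.25 from ZT1 to ZT13 against -0.06, and -0.60 from ZT1 to ZT19 against -0.39. From ZT7 to ZT13 it was 0.38 against -0.07, from ZT7 to ZT19 0.04 against -0.20, and from ZT13 to ZT19 -0.45 against -0.22. The 9 genes thus lay below all genes in 4 pairs and above them in 2. Scaling by the relative log expression method in place of TMM moved the median of all genes by between -0.23 and 0.16 in the 6 pairs, and it turned the sign of 3 of the 54 fold changes, none of which was larger than 0.055.

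**Figure D4:**
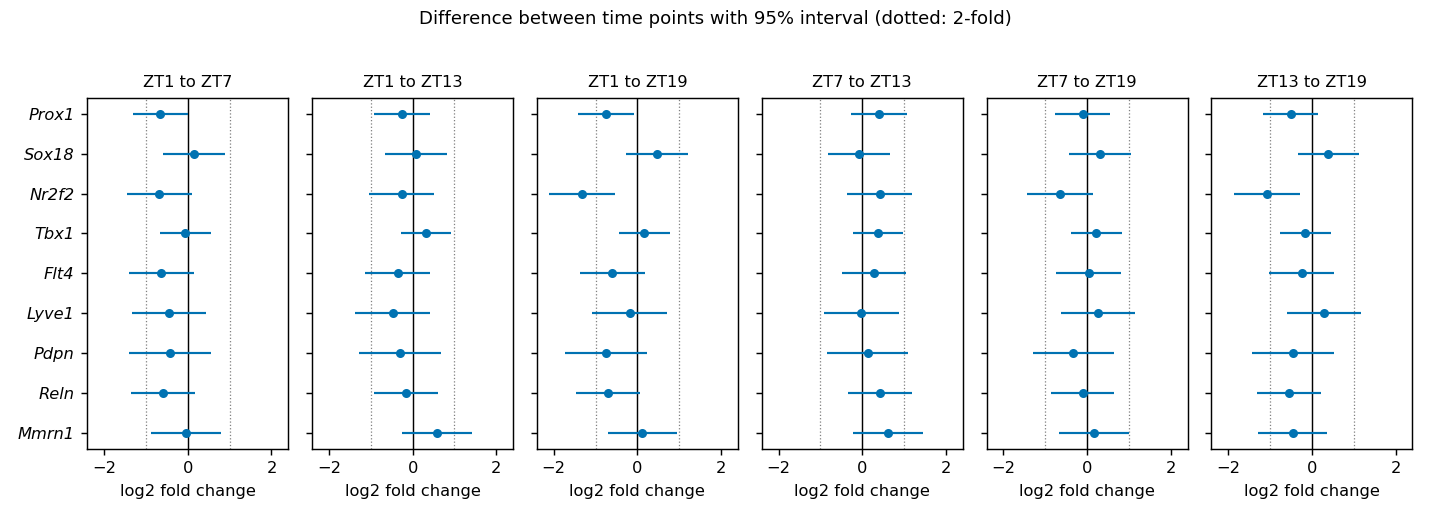
Log2 fold change of each gene from the first to the second time point of each pair, with 95% intervals (edgeR, n = 5 against 5). Dotted lines mark a 2-fold change. The intervals of Nr2f2 from ZT1 to ZT19 and from ZT13 to ZT19 and of Prox1 from ZT1 to ZT19 leave out 0, and none of these passed the adjusted threshold in edgeR.

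The genes were next compared with each other over the 20 libraries, in 36 pairs of log2 CPM. With Benjamini-Hochberg adjustment 6 pairs were related by Pearson's r and 5 by Spearman's rho, and each of the 6 was positive. The weakest of the 6 had an r of 0.62. Of all pairs among the 1180 genes with a mean level at or above that of Pdpn, the lowest of the 9, 19.3% had an r at least as high, against 16.7% of these 36, so related pairs were no more frequent among the 9 genes than among other genes of such levels. Flt4 and Reln had r = 0.76 (permutation p = 9e-05, adjusted p = 0.00324) and rho = 0.67 (permutation p = 0.00179, adjusted p = 0.0129). Nr2f2 and Pdpn had r = 0.73 (permutation p = 0.00044, adjusted p = 0.00396) and rho = 0.77 (permutation p = 0.00013, adjusted p = 0.00414). Both relations kept their sign within the 14 libraries with fewer reads on genes and within the 6 with more, at 0.64 and 0.74 for Flt4 and Reln and at 0.59 and 0.45 for Nr2f2 and Pdpn.

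Tbx1 and Mmrn1 had r = 0.71 (permutation p = 0.00036, adjusted p = 0.00396) and rho = 0.72 (permutation p = 0.00058, adjusted p = 0.00696), with 0.54 within the 14 libraries and 0.82 within the 6. For Nr2f2 and Reln, r was 0.62 (permutation p = 0.00377, adjusted p = 0.0226) while rho, at 0.55, missed the threshold (permutation p = 0.0132, adjusted p = 0.0790), and r was 0.34 within the 14 and 0.43 within the 6. Flt4 and Pdpn had r = 0.72 (permutation p = 0.00031, adjusted p = 0.00396) and rho = 0.74 (permutation p = 0.00023, adjusted p = 0.00414). Nr2f2 and Flt4 had r = 0.65 (permutation p = 0.00191, adjusted p = 0.0138) and rho = 0.70 (permutation p = 0.00088, adjusted p = 0.00792). These last 2 pairs did not hold in both sets of libraries, with 0.86 and 0.73 within the 14 and -0.73 and -0.22 within the 6. With the time-point means taken out, r of the 6 pairs was between 0.38 and 0.70, and with the 2 libraries farthest from the median left out it was between 0.49 and 0.75. All levels of a library share its total and its scaling, so these values are not independent of each other.

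**Figure D5:**
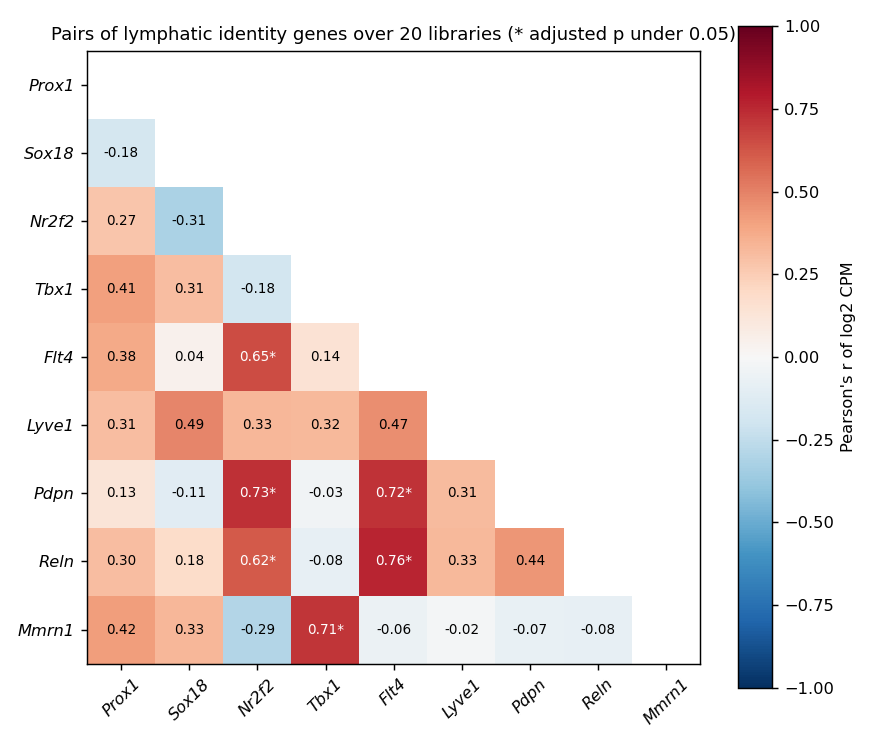
Pearson's r of log2 CPM for each of the 36 pairs of the 9 genes over 20 libraries, with an asterisk where the adjusted permutation p is under 0.05. The 6 marked pairs run from 0.62 to 0.76. Of these, 5 join genes among Nr2f2, Flt4, Pdpn and Reln, and the other joins Tbx1 and Mmrn1.

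Against the log2 odds of the share on genes and the score of keratinocyte markers, 5 of 18 relations passed by Pearson's r and none by Spearman's rho. With 1 library left out at a time, between 1 (without replicate 5 of ZT13) and 6 passed by Pearson's r. The weakest relation that passed had an r of 0.55 for the odds and of -0.57 for the keratinocyte score. Of all genes tested 43.7% had an r at least as far from 0 with the odds, and 3.21% with the keratinocyte score, against 4 and 1 of the 9. Among the 1180 genes with a mean level at or above that of Pdpn, the lowest of the 9, 26.4% were related to the odds upwards and 5.34% downwards by this measure. Upward relations with the odds are thus shared by a large part of the genes of such levels, and downward ones, as that of Nr2f2, by a small part. Besides Nr2f2, 3 genes moved with the odds, all upwards. Mmrn1 had r = 0.62 (permutation p = 0.0034, adjusted p = 0.0306) and rho = 0.42 (permutation p = 0.0686, adjusted p = 0.206). Tbx1 had r = 0.59 (permutation p = 0.00658, adjusted p = 0.0395) and rho = 0.52 (permutation p = 0.0207, adjusted p = 0.162). Sox18 had r = 0.55 (permutation p = 0.0112, adjusted p = 0.0404) and rho = 0.61 (permutation p = 0.00521, adjusted p = 0.0938). Within the 14 and the 6 libraries r was 0.31 and 0.78 for Mmrn1, 0.59 and 0.33 for Tbx1, and 0.61 and -0.94 for Sox18, so that of Sox18 did not hold within the 6. Mmrn1 was also lower where keratinocyte markers were higher (r = -0.57, permutation p = 0.00946, adjusted p = 0.0404, rho = -0.46, permutation p = 0.0417, adjusted p = 0.162), with -0.78 within the 14 and -0.69 within the 6. Leaving out the 2 libraries farthest from the median, both relations of Mmrn1 shrank, to 0.31 with the odds and to -0.19 with the keratinocyte score. With the time-point means taken out they were 0.86 and -0.39. These values do not settle how far the relations rest on the 2 libraries. Without the 2 farthest libraries r with the odds was 0.47 for Tbx1 and 0.83 for Sox18.

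The genes most like each of the 9 were sought among 10228 others with a mean log2 CPM of at least 3, by Pearson's r over the 20 libraries after each time point's mean was taken out. The closest for Nr2f2 were Rpl17, Rpl39 and Rps10, with r from 0.95 to 0.96, and these encode proteins of the ribosome. For Mmrn1 they were Fbln5, Fgl2 and Tprgl, with Fbln5, the gene of an elastic fibre protein, at 0.97. Pdpn was closest to Pgm5, Mterfd2 and Mbnl1 (0.93 to 0.95), Reln to Notch1, Tns1 and Snrnp200 (0.88 to 0.92), and Lyve1 to N4bp3, Ldb2 and Tardbp (0.87 to 0.90). Tbx1 was closest to Fkbp8, Lmna and Akap2 (0.89 to 0.90), Sox18 to Glud1, Txnip and Paics (0.87 to 0.90), and Flt4 to Arap3, Cand1 and Clstn1 (0.87 to 0.88). Prox1 had the least close neighbours, Icam1, Unc93b1 and Msn (0.80 to 0.83). These are the highest of many values over libraries that share their depth and their share of reads on genes, and are given as a description.

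The wider pathway was read from a list of 48 genes around the 9, of which 46 passed the filter. None differed among the 4 time points in edgeR's test at the adjusted threshold and none had a 24-h rhythm, with 7 and 3 at an unadjusted p under 0.05. These are 15.2% and 6.52% of the list, against 15.7% and 9.23% of all genes. DESeq2 called 3 among the time points, Ackr4, Ezr and Maf, where it called 2.77% of all genes. A robust fit called Ackr4 and Ezr, with 0.479% of all genes, and a fit with no filter called Ackr4, with 0.429%. Of the pairs of time points, edgeR called 2 genes, both between ZT13 and ZT19, where 0.588% of all genes were called. Ezr, the gene of ezrin, which links podoplanin to actin, rose from 267 ± 24.7 normalized reads at ZT13 to 1030.4 ± 304 at ZT19 (SD, n = 5), by 1.95 on the log2 scale (SE 0.40, adjusted p = 0.0162 by edgeR's test). Ackr4, the gene of an atypical chemokine receptor that takes up CCL19 and CCL21, rose from 143 ± 40.6 to 687 ± 257, by 2.26 (SE 0.51, adjusted p = 0.0328 by edgeR's test). Both moved in the direction of the keratinocyte markers, whose summed level at ZT13 and ZT19 did not overlap. With keratinocyte and fibroblast scores as covariates the differences were 1.55 for Ezr (adjusted p = 0.219) and 1.05 for Ackr4 (adjusted p = 0.471), and with the log2 odds of the share on genes they were 1.72 (adjusted p = 0.0815) and 1.77 (adjusted p = 0.171), all by edgeR's test. Ackr4 also missed the threshold when replicate 1, 2, 3 or 4 of ZT13 or replicate 1 or 5 of ZT19 was left out, at adjusted p from 0.0553 to 0.0987, while Ezr was called in each of the 20 fits with 1 library left out. Without the 5 libraries over 60% of reads on genes Ackr4 was at 2.05 (adjusted p = 0.305) and Ezr at 2.13 (adjusted p = 0.0283, with 0.202% of all genes called). Without the 6 over 50% neither passed in edgeR, with Ackr4 at 2.36 (adjusted p = 0.439) and Ezr at 2.18 (adjusted p = 0.117), where 0.0990% of all genes were called.

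DESeq2 called more of the pathway genes in the pairs of time points, as it did of all genes. From ZT1 to ZT19 it called 5 of the 46 (10.9%, against 10.3% of all genes), with Ackr4 and Cd9 rising by 1.72 and 1.03 on the log2 scale and Maf, Nrp2 and Vegfc falling. From ZT7 to ZT19 it called 4 (8.70%, against 10.8%), Foxc2, Maf, Stab2 and Vegfc, all lower at ZT19. From ZT13 to ZT19 it called 8 (17.4%, against 9.24%), of which Ackr4 and Ezr rose and Foxc2, Maf, Mmrn2, Sema3d, Stab2 and Vegfc fell. From ZT7 to ZT13 it called Ackr4 alone, which fell by 1.87 (adjusted p = 0.0376, with 0.385% of all genes called). In edgeR, single libraries and covariates also moved these calls. Without replicate 4 of ZT19 it called 5 from ZT1 to ZT19, Cldn11, Foxc1, Maf, Nrp2 and Thy1, where 4.55% of all genes were called, and Maf besides Ackr4 and Ezr from ZT13 to ZT19, where 0.712% were. Without replicate 5 of ZT13 it called Maf and Vegfc besides Ackr4 and Ezr from ZT13 to ZT19, with 4.30% of all genes. With keratinocyte and fibroblast scores as covariates it called Cldn11, Maf and Thy1 from ZT1 to ZT19 (0.927% of all genes) and Maf and Vegfc from ZT7 to ZT19 (4.21%).

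Of the 6 genes of VEGF-C and VEGF-D, their processing and their other receptors, the co-receptor gene Nrp2 had 3719 ± 2014 normalized reads at ZT1 and 1605 ± 911 at ZT19 (adjusted p = 0.248 among the time points, edgeR's test, and -1.27 on the log2 scale with an adjusted p of 0.0161 for this pair in DESeq2). Vegfc was low, with at most 41 reads in a library, and was at 0 in all 5 libraries of ZT19 and in 10 of 20 (adjusted p = 0.255 among the time points, edgeR's test). DESeq2 called its differences from ZT1, ZT7 and ZT13 to ZT19, at adjusted p from 0.0121 to 0.0298. A count of 0 allows up to 3 reads in a library, and the mean of Vegfc was 11 ± 9.16 normalized reads at ZT1 and 20.2 ± 28.1 at ZT13. Among 12 related transcription factors the smallest p was that of Maf, with 3322 ± 829 at ZT1 and 1106 ± 1019 at ZT19 (adjusted p = 0.242 in edgeR's test among the time points, and -1.69 with an adjusted p of 0.00954 for this pair in DESeq2), followed by Foxc2, a factor of lymphatic valves, with 1352 ± 213 at ZT7 and 767 ± 286 at ZT19 (edgeR's adjusted p = 0.293 among the time points, and -0.98 with an adjusted p of 0.0117 for this pair in DESeq2). Of the 4 genes of reelin receptors and their adaptor, Vldlr and Lrp8 had 396 ± 199.7 and 121 ± 88.2 normalized reads (SD, n = 20), Dab1, the adaptor, had 94.8 ± 101, and Itgb1, the gene of integrin beta 1, had 3928 ± 846. Per kb of exon the means were 47.6, 25.7, 16.5 and 1030 normalized reads, against 1229 for Reln itself. Of the relatives of multimerin 1 and LYVE1, Mmrn2 had 1835 ± 814 at ZT13 and 916 ± 296 at ZT19 (adjusted p = 0.324), and Stab2 had 179.7 ± 131 at ZT7 and 33.7 ± 38.2 at ZT19 (adjusted p = 0.344, both in edgeR's test among the time points). DESeq2 called both of these pairs, with -1.11 for Mmrn2 (adjusted p = 0.0439) and -2.80 for Stab2 (adjusted p = 0.0198). Rdx, a relative of ezrin, and Efnb2, the gene of ephrin B2, had their highest means at ZT1, with 4051 ± 2286 and 3032 ± 784 (adjusted p = 0.395 and 0.315 in the same edgeR test), the time point with the highest median of summed fibroblast markers. A relation of Rdx or Efnb2 to those markers was not tested. Ccl21a, the gene of the chemokine CCL21, is listed at 0 in all 20 libraries. It has near-identical copies in the mouse genome, and reads aligned to more than 1 place were not counted on genes, so this 0 does not measure its expression. Clec1b did not pass the filter and was not tested.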

How the data were processed

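RNA of sorted dermal LECs was amplified to full-length cDNA and made into libraries that do not keep the strand, without molecular identifiers. Per the labels, the authors mapped single-end reads to mm10 with STAR and counted them with HTSeq-count (Galaxy version 1.0.0), and the deposited values are raw counts per gene symbol. Samples were grouped by their labels.

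edgeR 4.0.16 in R 4.3.3 was fitted once to the counts of all 20 libraries (TMM scaling, filterByExpr by time point, quasi-likelihood F-tests), among the 4 time points, for a cosine curve of 24 h and between the 6 pairs, with Benjamini-Hochberg adjustment over 19209 genes at 0.05. Normalized reads are counts scaled to the geometric mean of the effective library sizes. Log2 CPM used a prior count of 2, and correlations used two-sided permutation tests with 100000 resamples. Exon lengths matched 98.5% of the symbols, 949 of them through an older name. Intervals and floors cover counting error only where they rest on counts of 1 library. The tests were run on simulated counts with independent libraries and a dispersion common to all genes. This checked the code and not how the tests fare on these libraries.

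The 9 genes, the pathway list and the marker lists were chosen with earlier results of these data known. The text names the 9 genes, the pathway genes called or with the 2 smallest p of their group, the 3 genes most like each of the 9 and the first 3 markers of a list. Genes called by an alternative alone and Plvap, Gpihbp1, Aqp1, Ccdc80, Dab1 and Itgb1 were named after their values were seen. Of the other markers checked, those of leukocytes had summed levels of 18.9 to 723 normalized reads, of macrophages 233 to 1511, of mural cells 246 to 2053 and of skeletal muscle 25.8 to 334. Alternatives were DESeq2 1.42.0, other scaling, no filter, the replicate block, covariates, a robust fit, each library left out and fewer libraries. Leaving out the libraries with over 50% or over 60% of reads on genes was chosen after seeing the data. Same-numbered replicates share a number, and no label says whether they share more.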

Additional observations from a re-analysis of the deposited data

Results flagged for a closer look

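Of the 36 sets of 5 libraries (9 genes at 4 time points), 2 held a library whose distance to its nearest neighbour, as a share of the whole range of log2 normalized reads, was above Dixon's critical value of 0.71, which chance exceeds in about 1 of 20 sets. Both were of Pdpn. Replicate 2 of ZT13 had 3927 normalized reads against 1018 to 1312 in the other 4 libraries of its time point (ratio 0.812). Replicate 4 of ZT19 had 2990 normalized reads against 713 to 1056 in the other 4 (ratio 0.726).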

How the results depend on the processing

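None of the alternatives turned the direction of the differences of Nr2f2 and Prox1 from ZT1 to ZT19 or of Nr2f2, Ezr and Ackr4 from ZT13 to ZT19. Other differences of Ackr4 were not followed in this way. No setting called a gene of the 9 for a 24-h curve, and of the 522 tests of a single gene among the time points or for the curve under 29 settings 1 was called, that of Nr2f2 by DESeq2. DESeq2 called 1 of the 9 genes among the time points, 2 differences between pairs for the 9 genes, 3 pathway genes among the time points and 533 of all genes, where edgeR called 0, 0, 0 and 81. With no filter on low counts 1 pathway gene was called, Ackr4, and with a robust fit 2, Ackr4 and Ezr. With the replicate block 31 of all genes were called and none of the 9. The correlation of same-numbered replicates was between -0.09 and 0.20 in the 6 pairs, which does not settle whether the numbers pair the samples. The share on genes (log2 odds) as a covariate gave 49 of all genes, the keratinocyte and fibroblast scores 8, with 1 difference of Nr2f2 called. Without the 5 libraries over 60% on genes 21 of all genes were called and Ackr4 no longer passed from ZT13 to ZT19, at 2.05 on the log2 scale with 2 libraries of ZT19 kept. Without the 6 over 50%, which keeps 1 library of ZT19, Ackr4 and Ezr were at 2.36 and 2.18, so their folds were of the size of the 2.26 and 1.95 with all libraries. Leaving out 1 library at a time gave 30 to 178 of all genes, 0 or 1 pathway gene among the time points, 0 to 5 pathway genes from ZT1 to ZT19 and 1 to 4 from ZT13 to ZT19, 0 or 1 difference between pairs for the 9 genes (Nr2f2, without replicate 4 of ZT19), 1 to 6 of the 18 relations with library properties and 4 to 7 of the 36 relations between the genes. The lowest count of all genes, 30, came without replicate 4 of ZT13 and the highest, 178, without replicate 4 of ZT19, and the count of 1 relation with library properties came without replicate 5 of ZT13. No overlap of the genes called under these settings was computed. The causes were not tested. The depth of these libraries does not limit the 9 genes, of which the lowest count was 513, while the spread between replicates leaves a 2-fold change inside the interval in most pairs.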

Other observations

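Within the 14 libraries at or under 50% of reads on genes, Pearson's r of the 9 lymphatic identity genes to the log2 odds ran from -0.05 for Prox1 to 0.73 for Flt4 and was above 0 for 8 of them (88.9%), as for 90.8% of the 1180 genes with a mean level at or above that of Pdpn. For 4 of them, Nr2f2, Flt4, Pdpn and Reln, r over all 20 libraries had the opposite sign (-0.71, -0.38, -0.30 and -0.51). These signs were read after the data had been seen, over libraries that share their scaling, and are given as a description.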
